A study of Mus musculus with 21 samples.

Results

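A testis whose germ cells stop in meiosis and a testis that has not yet matured both lack late germ cells, and the comparison asked which genes separate them. Of the 21 arrays of the series, 8 were used. On 4 arrays total RNA of whole testes of Spo11 knockout mice was hybridised against wild type whole testis (the knockout set), and on 4 arrays wild type whole testis at 15 days was hybridised against adult wild type whole testis (the 15 day set). Each set had 2 arrays in each channel order. A gene entered if it had a value on 3 or more arrays of each set, which 4655 of the 7117 genes named by 1 symbol on the array did. The measured quantity was the difference between the mean log2 ratio of the knockout set and that of the 15 day set, after each array was centred on its median, so a positive difference means higher in the knockout set. The labels gave neither the strain, the knockout allele nor the age of the knockout animals and their controls. They did not say whether the control RNA of both sets was the same, so a difference between the sets cannot be told apart from a difference between the controls. The source named first in each set was taken as the likely numerator, which the labels did not state; with the opposite numerator all directions below would be reversed.

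Spo11 encodes the enzyme that cuts DNA to start meiotic recombination. Without it spermatocytes fail to pair their chromosomes and die in meiotic prophase, so no spermatids form, while the somatic cells of the testis go on to adulthood. A testis at 15 days also has no spermatids, because its first wave of germ cells has only reached meiotic prophase, and its Sertoli and Leydig cells are still maturing. Leydig cells lie between the tubules and make testosterone from cholesterol, and Sertoli cells nurse the germ cells inside the tubules. In whole tissue, fewer cells of a type and less RNA per cell cannot be told apart.

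The sets parted mostly in one direction: 90 genes were higher in the knockout set and 8 in the 15 day set. Together these 98 genes were 2.11% of the genes tested (limma, Benjamini-Hochberg adjusted p under 0.05), with 1.93% higher in the knockout set and 0.172% higher in the 15 day set. All arrays of one set lay on one side of all arrays of the other for each of the 98 genes. Over all genes, 11.0% had every knockout array above every 15 day array, 4.45% had every knockout array below, and 54.4% had a difference above 0. The median difference over all genes was 0.05. Among the 90 genes the differences had a median size of 1.35 and ran from 0.88 to 7.55, and 20 of them exceeded 2. Among the 8 genes the sizes ran from 0.93 to 2.19.

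Facts of the arrays bear on these counts. The 8 arrays carried between 8456 and 13449 probe values; their small number bounds the precision. Arrays within the knockout set correlated across probes at r between 0.638 and 0.807, and those of the 15 day set between 0.471 and 0.925, the lowest between replicates 1 and 2. The spread of log ratios, as a median absolute deviation, was 0.949 to 1.23 on the knockout arrays and 0.756 to 0.979 on the 15 day arrays, with 15 day replicate 2 the narrowest. Differences between genes that moved the same way in both sets depend on that spread, so values with the arrays scaled to 1 spread are given beside the named genes whose call they end. The labels named no run, so gaps between the array numbers in the titles were taken to part runs. These put all knockout arrays in 1 run and 15 day replicates 1 and 2 in another, apart from replicates 3 and 4. The gap between the knockout arrays and 15 day replicates 1 and 2 only just passed the cutoff used. A run so inferred cannot be told apart from the knockout set. The labels did not say that arrays held separate animals, and the p-values measure only how arrays vary, which may be technical. A probe for Spo11 itself was not found among the named ones, and the deletion was not checked on that gene. Without 15 day replicates 3, 1 or 4, the total of 98 became 15, 19 or 21 genes. Without knockout replicate 1 or 4 or 15 day replicate 2 it became 50, 60 or 54. Each of the 98 kept its sign, which was fixed in advance, since their arrays did not overlap between the sets. With each replicate left out in turn, 15 genes were called every time: Lcn2, Ces1d, Cyp17a1, Ephx1, Cyp11a1, Prnd, Ube2e3, 1110008P14Rik, Selenop, AI449310, B2m, Fabp3, Nucb2, Ppip5k1 and Tmem176b. Against 15 day replicates 1 and 2 alone 7 of the 98 were called, and against replicates 3 and 4 alone 13. The signs were again fixed in advance. The counts of called list members given below moved as well: over all alternatives the count of 4 for Leydig genes ran from 2 to 6, that of 2 for Sertoli genes from 0 to 6, that of 3 for macrophage genes from 0 to 4, that of 7 for redox genes from 2 to 11 and that of 6 for cathepsins from 0 to 6.

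**Figure D1:**
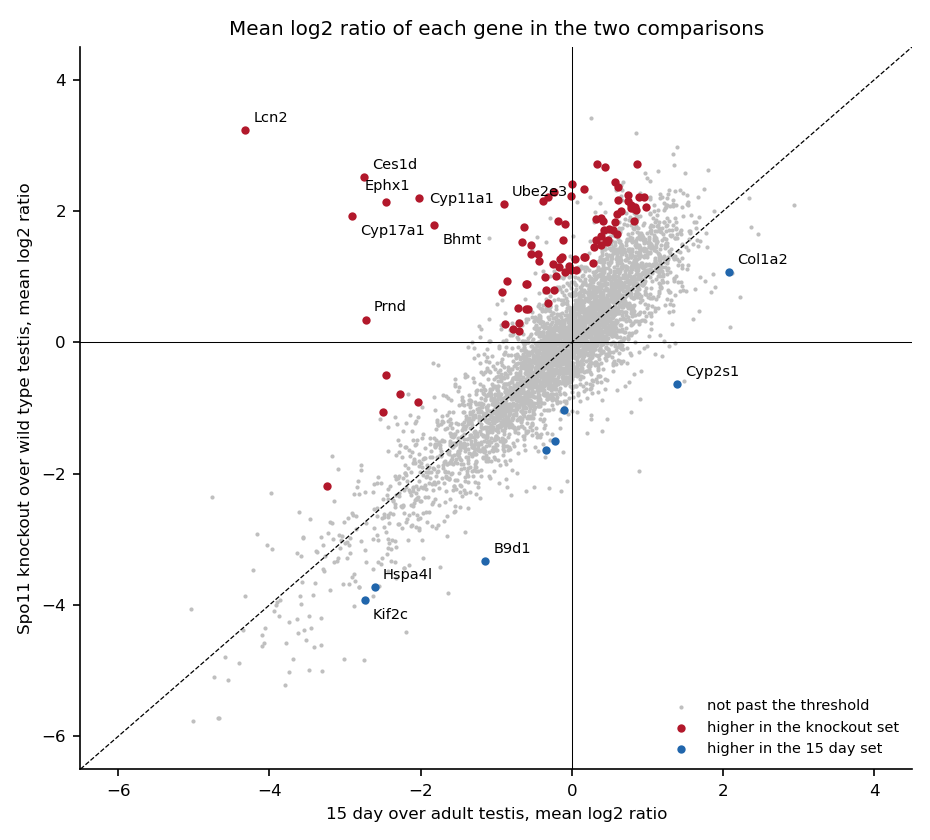
Mean log2 ratio of each gene in the 15 day set (horizontal axis) and in the knockout set (vertical axis); red points are genes higher in the knockout set, blue points genes higher in the 15 day set, grey points genes not past the threshold, and the dashed line marks equal ratios. Genes with a value beyond 10 on any of the 8 arrays are left out. Lcn2, Ces1d, Cyp17a1, Ephx1, Cyp11a1 and Bhmt lie in the upper left quadrant, above 0 in the knockout set and below 0 in the 15 day set, and Cyp2s1 in the lower right.

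In 19 genes the sets moved to opposite sides of 0, with the mean of each set past the threshold as well. The knockout set was above its control and the 15 day set below in 18 of them (0.387% of genes tested), and the reverse held in 1 (0.0215%), the cytochrome P450 gene Cyp2s1. All 19 were still called with the arrays scaled to 1 spread. Without 15 day replicate 3 the 19 became 8, and without replicate 1 or 4 they became 9. Lcn2, which encodes the secreted lipocalin that binds iron carriers, was farthest apart. Its log2 ratios were 3.40, 3.13, 3.24 and 3.17 on the knockout arrays and -3.96, -4.88, -4.30 and -4.13 on the 15 day arrays. Every knockout array was thus more than 3 above the control and every 15 day array more than 3 below. The difference was 7.55 ± 0.23 (SE, n = 4 and 4 arrays), a 188-fold difference between the ratios (limma adjusted p = 2.071e-07). Against 15 day replicates 1 and 2 alone it was 7.66, and against replicates 3 and 4 alone 7.45.

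The next largest differences among genes outside the steroid pathway were those of Ces1d, Ephx1 and Bhmt. Ces1d, a carboxylesterase that cleaves esters of lipids and drugs, stood at 2.67, 2.43, 2.84 and 2.13 in the knockout set and at -2.37, -2.52, -3.46 and -2.67 in the 15 day set. Its difference of 5.27 ± 0.28 was 38.7-fold (limma adjusted p = 1.2e-05). Ephx1 encodes the microsomal epoxide hydrolase. It was at 2.49, 2.04, 2.15 and 1.87 on the knockout arrays and at -2.72, -2.25, -2.46 and -2.41 on the 15 day arrays, a difference of 4.60 ± 0.20. Bhmt, which remethylates homocysteine with betaine, read 2.0, 1.42, 1.81 and 1.91 in the knockout set and -3.23, 0.04, -2.16 and -1.95 in the 15 day set. The sets did not overlap, though 15 day replicate 2 lay at 0.04, apart from the other 3, and the difference was 3.61 ± 0.57 (limma adjusted p = 0.0176).

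Both tested cytochrome P450 genes of steroid synthesis were among these genes. Cyp17a1, whose product turns progestins into androgens, was at 2.0, 1.59 and 2.19 on 3 knockout arrays, with no value on replicate 3, and at -2.48, -2.42, -2.77 and -3.95 on the 15 day arrays. The difference of 4.83 ± 0.39 was 28.5-fold (limma adjusted p = 0.000667). Cyp11a1 encodes the enzyme that cleaves the side chain of cholesterol, the first step of steroid synthesis. Its ratios of 2.60, 1.84, 2.45 and 1.88 in the knockout set contrasted with -2.10, -1.68, -2.52 and -1.79 in the 15 day set, a difference of 4.22 ± 0.27. Ces1d, Cyp11a1, Ephx1, Lcn2, Ube2e3, Cyp17a1 and the prion-like gene Prnd were the 7 genes called under every alternative processing in which they were tested.

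For 4 of the 6 genes farthest apart the RefSeq promoter table (build GRCm38.p6) held a sequence, shown here as description only. Whether these genes share regulation was not tested. Each run is the 100 bases before the annotated start, and capitals mark AAGGTCA, a binding motif of nuclear receptors such as the steroidogenic factor Nr5a1, read on both strands. Cyp11a1 had 2 starts in the table and 1 of them is shown.
Lcn2, chr2:32387740-32387839, minus strand: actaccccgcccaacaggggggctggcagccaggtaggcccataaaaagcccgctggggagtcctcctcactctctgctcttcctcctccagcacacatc
Cyp11a1, chr9:57997924-57998023, plus strand: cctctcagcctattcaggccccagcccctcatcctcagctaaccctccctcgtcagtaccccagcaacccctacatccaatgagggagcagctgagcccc
Ephx1, chr1:181017570-181017669, minus strand: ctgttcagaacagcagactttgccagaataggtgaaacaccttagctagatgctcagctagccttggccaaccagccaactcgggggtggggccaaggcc
Bhmt, chr13:93637759-93637858, minus strand: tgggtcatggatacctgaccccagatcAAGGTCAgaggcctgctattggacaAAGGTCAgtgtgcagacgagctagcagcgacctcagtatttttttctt
Bhmt held the motif at 2 places and the other 3 windows did not hold these letters. In the 300 bases of the table, from 250 before to 50 after a start, AAGGTCA or its reverse complement TGACCTT stood in 5.38% of all promoters and in 3.93% of those of the tested genes. It stood in 4 of the 72 genes higher in the knockout set that had a promoter there (5.56%: Bhmt, Ctsa, Psap and Tmc6) and in 0 of the 8 higher in the 15 day set. The cyclic AMP response motif TGACGTCA, which reads alike on both strands, stood in 2.03% of all promoters, in 3.93% of the tested genes' promoters, in that of Flcn among the 72 (1.39%) and in that of Ndc80 among the 8 (12.5%). TATAAA, searched after values were seen, with its reverse complement TTTATA, stood in 15.7% of all promoters, in 8.65% of the tested genes' promoters and in 14 of the 72 (19.4%).

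**Figure D2:**
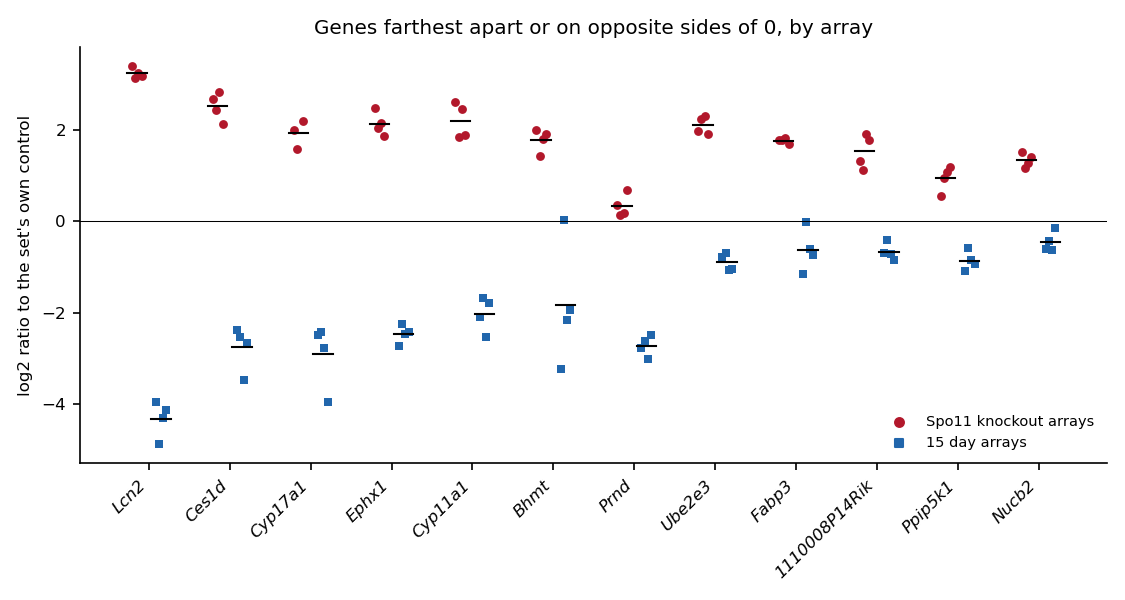
Log2 ratio on each array for 12 genes (vertical axis), with knockout arrays as red circles, 15 day arrays as blue squares and the mean of each set as a black bar. The sets of each gene do not overlap, and the 15 day squares of Bhmt spread from -3.23 to 0.04.

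The other opposite-sided genes had smaller differences. Ube2e3, a ubiquitin-conjugating enzyme, read 1.97, 2.24, 2.30 and 1.90 in the knockout set and -0.78, -0.70, -1.07 and -1.05 in the 15 day set, a difference of 3.0 ± 0.19 (limma adjusted p = 4.053e-05). Fabp3, a fatty acid carrier of muscle, differed by 2.39 ± 0.25, but its 2 probes gave 0.56 and 4.23. The unnamed transcript 1110008P14Rik differed by 2.20 ± 0.23, Abhd3, a phospholipase, by 1.90 ± 0.23, and Ppip5k1, a kinase of inositol pyrophosphates, by 1.80 ± 0.21. Nucb2, the precursor of nesfatin, differed by 1.79 ± 0.19 and Smoc1, a secreted modulator of growth factor signalling, by 1.69 ± 0.22. Gstm1, Ctsc, Me1, which makes NADPH from malate, Plbd2 and the centriole protein gene Ccp110 had differences between 1.10 and 1.5. In Gstm1 the 3 probes did not share a sign, with differences from -0.16 to 2.34. In Cyp2s1 the knockout arrays read -0.46, -0.92 and -0.54, with none for replicate 1, and the 15 day arrays 1.22, 1.23 and 1.72, with none for replicate 2. That difference was -2.03 ± 0.26 (limma adjusted p = 0.0148).

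Genes of Leydig cells and steroid synthesis all lay above 0, as did 54.4% of all genes. Of 7 tested, 4 were called higher in the knockout set, against 1.93% of all genes, and 0 in the 15 day set, against 0.172%. The list's median difference was 1.14 against 0.05 over all genes. Besides the 2 cytochrome P450 genes, Scarb1, the receptor that takes up cholesterol from lipoproteins, was called at 1.14 ± 0.23. Of the 8 fits that each left out 1 replicate, Scarb1 was called in 1. Akr1c14, a reductase of androgen metabolism, was called at 1.0 ± 0.21, though in 0 of the 8 limma fits that each left out 1 replicate. Hsd3b1, which makes progesterone, had a difference of 1.98 ± 0.45 with no overlap of arrays but missed the threshold (limma adjusted p = 0.0643), and Nr5a1 and Cyb5a stood at 0.75 and 0.69. Of 6 cholesterol synthesis genes, 2 were called higher, Msmo1 at 1.88 ± 0.33 and Fdft1, the squalene synthase, at 1.05 ± 0.19. That list's median was 0.63, and Msmo1 and Fdft1 were each called in 2 of the 8 fits that left out 1 replicate. The 2 differ in where they lie: Msmo1 averaged 2.45 in the knockout set and 0.58 in the 15 day set, whereas Fdft1 averaged -2.19 and -3.24. Dhcr7 and Idi1, of the same pathway, stood at -0.19 and -0.20.

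Redox and detoxification genes differed in both directions, mostly upward. Of 23 tested, 7 were called higher in the knockout set and 1, Cyp2s1, in the 15 day set, with a median of 0.69. The shares over all genes were 1.93% and 0.172%. The 7 were Ces1d, Ephx1, Gpx1, Selenop and the glutathione transferases Gstm1, Gstm2 and Gstp1. Gpx1, the cytosolic glutathione peroxidase, read 2.06, 2.54, 2.33 and 2.21 in the knockout set and 0.07, -1.66, 0.33 and 0.32 in the 15 day set, where replicate 2 stood apart. Its difference of 2.52 ± 0.42 was 3.08 against 15 day replicates 1 and 2 and 1.96 against replicates 3 and 4. It became 2.33 with the arrays scaled to 1 spread and then missed the threshold (limma adjusted p = 0.0513). Selenop, which carries selenium between tissues, read 3.13, 2.93, 2.23 and 2.58 against 0.57, 0.37, -0.03 and 0.42, a difference of 2.39 ± 0.25 (limma adjusted p = 0.00171). Gstm2 differed by 1.35 ± 0.21 and Gstp1 by 1.08 ± 0.21, the latter not called after scaling (0.84, adjusted p = 0.116). Gstm5, a transferase at -4.83 and -3.69 in the sets, was at -1.14 ± 0.39 and not past the threshold.

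Sertoli cell genes also lay above 0, in 10 of 10 against 54.4% of all genes, with a median of 0.84. Of the 10, 2 were called higher in the knockout set, against 1.93% of all genes. Clu, a secreted chaperone made in quantity by Sertoli cells, averaged 2.0 and 0.66 and differed by 1.34 ± 0.20. Ctsl, a cathepsin that Sertoli cells secrete, averaged 2.06 and 0.83 and differed by 1.23 ± 0.25, a call that ended with scaled arrays (0.83, limma adjusted p = 0.163). Amhr2, the receptor of the hormone that regresses the Müllerian ducts, stood at 1.55 ± 0.52, and Wt1 and Gata4, transcription factors of the gonad, at 0.98 and 0.74. None of these 3 passed the threshold. Dhh, a signal from Sertoli to Leydig cells, was at 0.03 and the inhibin subunit Inha at 0.53.

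Cathepsins, the proteases of lysosomes, were higher in the knockout set, a family named after its values were seen. Of 7 cathepsins, 6 were called higher in the knockout set, the median was 1.23, and none of the 7 overlapped between the sets. Over all genes 1.93% were called higher and 11.0% had every knockout array above every 15 day array. Of the 8 fits that each left out 1 replicate, Ctsc was called in 0 and Ctsa and Ctsl in 1 each. Ctsb was called in 4 of them and Ctsd and Ctsh in 5 each. Ctsc was at 1.11, 0.80 and 0.77 on 3 knockout arrays and at -0.99, -0.56 and -0.24 on 3 of the 15 day arrays. Ctsb read 2.39, 1.51, 2.03 and 1.47 against 0.14, 0.35, 0.45 and 0.69, a difference of 1.44 ± 0.25 (limma adjusted p = 0.0237). Ctsd, Ctsl, Ctsa and Ctsh had differences between 1.23 and 1.33, and Ctsz stood at 0.57 ± 0.24 without passing. With arrays scaled to 1 spread 4 of the 7 were called, and Ctsl and Ctsa were not. Among 28 lysosomal genes, cathepsins included and also listed after values were seen, 9 were called higher and 0 lower, with a median of 0.74. With scaled arrays 5 of the 28 were called, and over all alternatives the 9 ran from 0 to 13. Psap, the precursor of the saposins that activate lipid breakdown, was at 1.31 ± 0.24, and Plbd2 and Glmp at 1.11 and 0.92. The calls of Psap and Glmp ended with scaled arrays (0.92 and 0.72, limma adjusted p = 0.0816 and 0.105). Of the 28 lysosomal genes, 26 lay above 0 and 2 below, while 54.4% of all genes lay above 0. The lysosomal enzymes Neu1, Man2b1 and Arsa stood at -0.32, -0.05 and 0.36 and did not pass.

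Markers of macrophages and leukocytes, cells rich in lysosomes, lay on the same side. Of 6 tested, 3 were called higher in the knockout set, against 1.93% of all genes, with a median of 1.07. Fcer1g, a signalling chain of immune receptors, was at 1.51 ± 0.28 and the complement gene C1qa at 1.24 ± 0.22. With them the lysozyme Lyz2 was called at 1.17 ± 0.22. Each of the 3 was called in 1 of the 8 fits that left out 1 replicate. The median of the list lay between 1.27 and 1.54 on the knockout arrays and between 0.25 and 0.57 on the 15 day arrays. Only Fcer1g was still called with scaled arrays (C1qa 0.93 and Lyz2 0.78), while C1qc and Laptm5 stood at 0.01 and -0.02. B2m, the light chain of class I antigen presentation, differed by 1.87 ± 0.22, and of the 3 genes of that list it alone was called. Whether macrophages take part in the cathepsin difference was not tested. The globin gene Hbb-b1, a marker of blood, was at 1.37 ± 0.30 (limma adjusted p = 0.0521), and 0 genes of the epididymis list were tested.

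**Figure D3:**
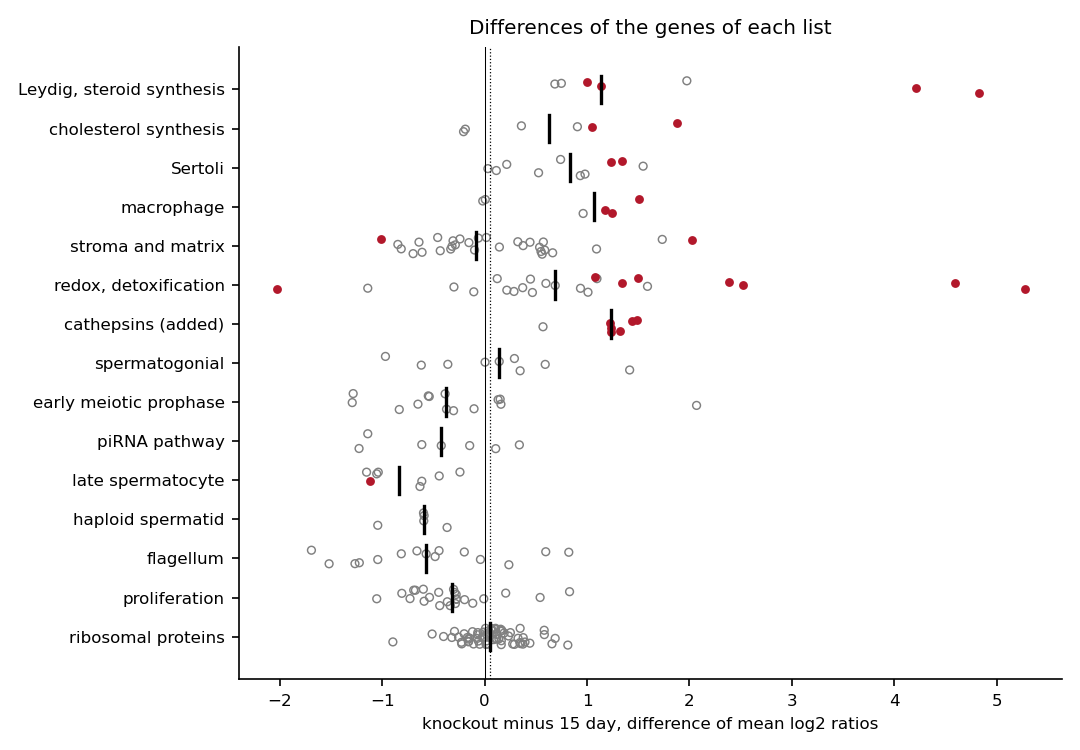
Difference of each tested gene (points; horizontal axis, knockout minus 15 day on the log2 scale) for 15 lists, with genes past the threshold filled, the list median as a black bar and the median over all genes as a dotted line. Leydig and redox genes reach 4.83 and 5.27, the 7 cathepsins lie between 0.57 and 1.49, and the medians of the meiotic, late spermatocyte and flagellum lists lie left of 0.

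For many genes the mean of 1 set alone was past the threshold. In Prnd, the prion-like protein doppel of the testis, it was the 15 day set, with 0.36, 0.14, 0.19 and 0.69 in the knockout set against -2.78, -2.62, -3.02 and -2.49 in the 15 day set, a difference of 3.07 ± 0.21 (limma adjusted p = 5.66e-05). Flcn, the tumour suppressor folliculin, read 2.34, 2.51, 2.31 and 1.45 against -0.75, 0.66, -0.69 and -0.76, where 15 day replicate 2 was the one above 0. The membrane protein gene Tmem176b differed by 2.53 ± 0.28, the matrix protein gene Ecm1 by 2.41 ± 0.37 and AI449310, a transcript with no known product, by 2.24 ± 0.27. In all, 40 of the 90 genes were past the threshold above 0 in the knockout set and not past it in the 15 day set. Another 22 were above 0 in both, 18 opposite, 6 below 0 at 15 days alone and 4 below 0 in both. Those 4 were Alas1, which starts haem synthesis, Crip2, Fdft1 and Map1lc3a, an autophagy protein.

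The 8 genes higher in the 15 day set were B9d1, Cyp2s1, Zfp957, Rabl3, Kif2c, Hspa4l, Col1a2 and Ndc80. Of the 8 fits that each left out 1 replicate, B9d1, Rabl3, Kif2c and Hspa4l were called in 0 and Ndc80 in 1. Zfp957 was called in 2, Col1a2 in 3 and Cyp2s1 in 5. B9d1, of the base of the cilium, read -4.17, -3.35, -2.81 and -3.0 in the knockout set and -0.29, -1.49 and -1.66 in the 15 day set, a difference of -2.19 ± 0.43 (limma adjusted p = 0.0443). It was -3.04 against 15 day replicate 1 and -1.76 against replicates 3 and 4. Kif2c, a kinesin that takes microtubules apart at centromeres, averaged -3.93 and -2.74. Hspa4l, a chaperone of germ cells, averaged -3.73 and -2.61 and differed by -1.12 ± 0.21. Ndc80, of the kinetochore, averaged -1.04 and -0.11, and the zinc finger gene Zfp957 and the small GTPase Rabl3 differed by -1.31 and -1.28. With the arrays scaled to 1 spread, 3 of the 8 were still called, Col1a2, Cyp2s1 and Zfp957. Hspa4l then stood at -0.29 and Kif2c at -0.27, and neither they nor B9d1, Ndc80 or Rabl3 passed.

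Col1a2, a chain of type I collagen, was above its control in both sets and more so at 15 days. Its ratios were 0.81, 1.12, 1.27 and 1.08 in the knockout set and 2.12, 1.94, 2.20 and 2.06 in the 15 day set, a difference of -1.01 ± 0.18 (limma adjusted p = 0.0268). Col3a1, a collagen of the same fibrils, was at -0.85 ± 0.31 and passed only with scaled arrays (-1.56, adjusted p = 0.0192). Of 30 genes of stroma and matrix, 1 was called higher in the knockout set, Pcolce, an enhancer of procollagen processing, at 2.03 ± 0.33, and 1, Col1a2, in the 15 day set. Among all genes 1.93% were called higher in the knockout set and 0.172% in the 15 day set. The stroma list's median was -0.08 and turned to 0.0048 with scaled arrays. In the 6 smooth muscle genes 0 were called by limma, with a median of 0.02. At an unadjusted p under 0.05, 1 of them passed, against 770 of all 4655 genes.

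**Figure D4:**
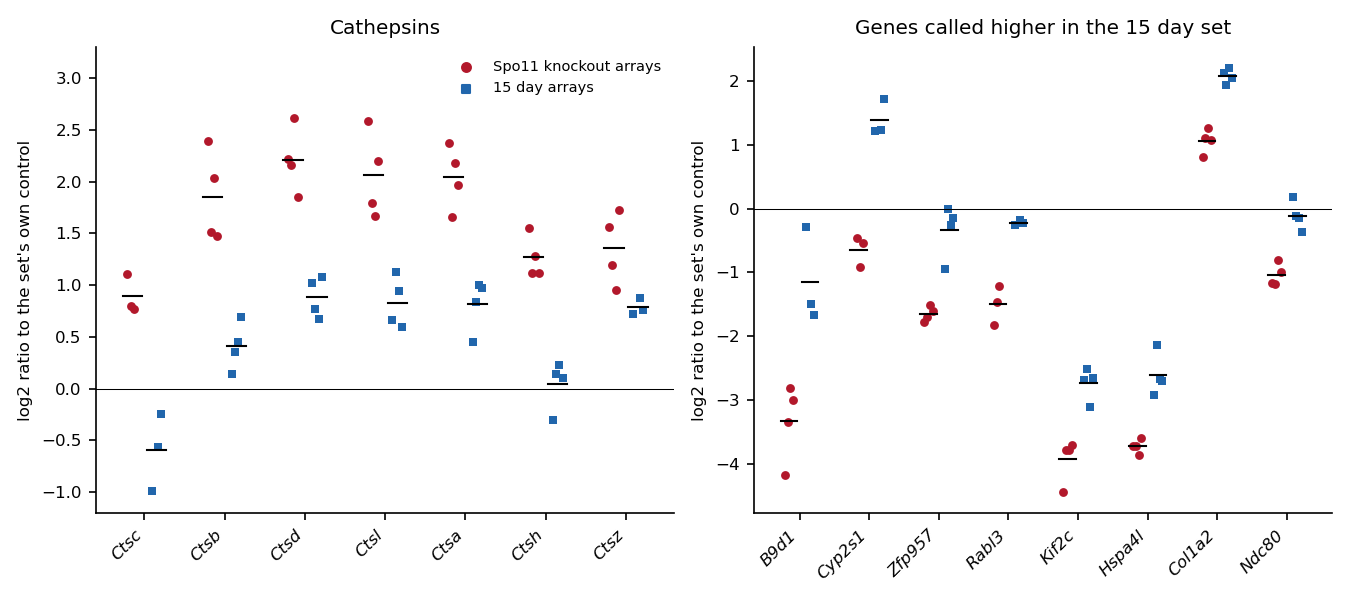
Log2 ratio on each array (vertical axis) for 7 cathepsins (left) and for the 8 genes higher in the 15 day set (right); red circles are knockout arrays, blue squares 15 day arrays and black bars the set means. Cathepsin circles lie above the squares in each gene, and the squares lie above the circles in each gene on the right.

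Among germ cell genes few single differences passed the threshold. Of 14 genes of early meiotic prophase 0 were called in either direction by limma. Among them 10 had a difference below 0, against 2118 of all 4655 genes, and the median was -0.38. Sycp1, of the synaptonemal complex that joins paired chromosomes, averaged -0.18 in the knockout set and 1.10 in the 15 day set. Its arrays did not overlap, but the difference of -1.28 ± 0.30 missed the threshold (limma adjusted p = 0.0732) and passed with scaled arrays (-1.42, adjusted p = 0.0325). Mnd1, a partner of the strand exchange enzymes, went the other way at 2.07 ± 0.43 (limma adjusted p = 0.0628). All 8 late spermatocyte genes lay below 0, with a median of -0.83 that became -0.28 with scaled arrays, and Hspa4l alone was called. The 7 piRNA pathway genes had a median of -0.42, and the 9 spermatogonial genes one of 0.14, with 0 called by limma in each. At an unadjusted p under 0.05, against 770 of all 4655 genes, 3 genes passed in each of the early meiotic, piRNA and spermatogonial lists.

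Several genes of spermatids and flagella, such as Tekt2, Hk1 and Galnt3, were far below the control in both sets, while others, such as Oaz3 (-0.35 and 0.24) and Ift27 (0.52 and -0.30), were not. The 5 haploid genes averaged between -5.73 and -0.35 in the knockout set, and 0 were called by limma. Their median difference of -0.59 turned to 0.35 with scaled arrays. Tekt2, a tektin of the sperm tail, averaged -5.73 and -4.69, and its difference of -1.04 ± 0.40 turned to 0.35 with scaled arrays. Hk1 and Galnt3 stood at -0.37 and -0.59, and likewise turned, to 0.94 and 0.79. The 15 flagellum genes had a median of -0.57, or -0.03 with scaled arrays. On the 15 day arrays Tekt2 read -5.06, -3.71, -5.07 and -4.90, with replicate 2 the least negative. Of 24 proliferation genes 21 lay below 0, against 2118 of all 4655 genes, and 0 were called by limma, with a median of -0.32. Smc4, a condensin subunit, was at -1.05 ± 0.25 (limma adjusted p = 0.0759). At an unadjusted p under 0.05, against 770 of all 4655 genes, 1 haploid, 6 flagellum and 9 proliferation genes passed. Of these, 1 flagellum and 2 proliferation genes were higher in the knockout set and the rest in the 15 day set.

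In 4 groups of broadly expressed genes no single gene passed the threshold. The 67 ribosomal protein genes had a median of 0.05, the 33 proteasome genes 0.18, the 56 respiratory chain genes 0.22 and the 10 DNA damage genes 0.27, with 0 called by limma in each. Of the respiratory chain genes 45 of 56 lay above 0, and of the ribosomal protein genes 42 of 67, against 54.4% of all genes. Rpl39 and its germ cell copy Rpl39l, whose probes may cross-hybridise, stood at 0.66 and -0.30. Glycolysis genes had a median of 0.47 and the imprinted growth genes one of -0.13, again with 0 called. At an unadjusted p under 0.05, 770 of all 4655 genes passed. Of these lists, 2 ribosomal, 5 proteasome, 9 respiratory chain, 2 DNA damage, 6 glycolysis and 3 imprinted growth genes passed. Among them 1 proteasome and 2 glycolysis genes were higher in the 15 day set and the others in the knockout set. Of 125 X-linked genes 4 were called higher in the knockout set (3.20%), namely Pgrmc1, Sat1, Pja1 and Idh3g, and 0 in the 15 day set. With scaled arrays Sat1 (1.02, limma adjusted p = 0.0911) and Idh3g (0.67, adjusted p = 0.165) were not called. Among 4485 autosomal genes 85 were higher and 8 lower (2.07%). The median X-linked difference exceeded the autosomal one by 0.22, and by 0.06 with scaled arrays.

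The arrays of other comparisons in the series, which the choice of genes did not use, described the same genes in whole wild type gonads. The 18 genes with the knockout above and 15 days below had a median log2 ratio of 1.11 in testis against a reference RNA. The median over all genes there was 0.14. Of the 18, 17 had a value and 16 were above 0, against 54.6% of all genes. In ovary against testis the median of the 18 was -0.14. The 90 genes higher in the knockout set had a median of 0.51 in ovary against testis, where all genes had -0.19. Of the 90, 58 were above 0 there, against 42.8% of all genes. The 8 genes higher in the 15 day set had a median of -2.03 there and 1.22 in testis against the reference. Cyp11a1 stood at 5.05 in testis against the reference and at 3.24 in ovary against testis, and Lcn2 at 2.96 and -2.81. Prnd stood at 3.99 and -3.38. In ovary against the reference Lcn2 and Prnd were at 0.30 and -0.03, near the median of -0.06 over all genes.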

How the data were processed

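The authors' deposited values were read as log2 ratios of 2-colour arrays, a unit the labels do not state; scanning, background correction, dyes and normalization are not given in the sources used here. Arrays of opposite channel order correlated positively, so none was turned. Of 16128 probes, 9817 were in the platform table and 9604 had 1 symbol, 213 had several and 6311 were not listed; 9496 matched RefSeq. Each array was centred on its median and the tested probes of a symbol were averaged. limma 3.58.1 in R 4.3.3 (lmFit, eBayes) fitted the 8 arrays with 1 mean per set, tested their difference, and adjusted p-values by Benjamini-Hochberg over all 4655 genes at 0.05. Errors are standard errors. Scripts were tested on simulated data. Of the tested genes, 3271 had values on all 8 arrays.

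Genes were named by rule: the 15 most different in each direction with no value beyond 10 and no overlap, up to 10 opposite-sided genes per orientation, up to 4 called members of a list, and genes fixed by name. Genes outside it (such as Hsd3b1, Mnd1 and Smc4) and the cathepsin, lysosome, glutathione transferase, aldo-keto reductase and kinetochore lists were chosen after values were seen. The members and lists were chosen with earlier results of these data known. Alternatives changed the arrays fitted, centring, scaling, probe averaging, filters, channel order, inferred run and each replicate.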

Additional observations from a re-analysis of the deposited data

Results flagged for a closer look

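Among 108 sets of 4 arrays of the named genes, 7 held 1 array far from the other 3 relative to the range; chance gives about 5% of such sets. In the 15 day set replicate 2 was that array for Flcn (0.66), Gpx1 (-1.66) and Tekt2 (-3.71), replicate 1 for Gstm1 (-1.05) and replicate 4 for Gstp1 (0.62). In the knockout set replicate 1 was that array for Kif2c (-4.44) and replicate 2 for Psap (2.75). Outside the named genes, 26 of 1959 tested probes that the platform table did not list passed the threshold for the difference. Of these, 22 were higher in the knockout set. Over all tested probes 127 of 7961 passed, 111 of them higher in the knockout set.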

How the results depend on the processing

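Wherever tested (75 of the 98 with values on all 8 arrays), the called genes kept their sign under each alternative except 1 probe per gene, where 96 of 98 did (Gstm1 turned to -0.16). In fits that only left arrays out this was fixed in advance, since the sets did not overlap in these genes. Counts are given as all, higher in knockout, higher at 15 days and opposite-sided; as reported they were 98, 90, 8 and 19. With the run inferred from array numbers as a random block they were 658, 481, 177 and 56. The estimated correlation within these runs was negative (-0.23), which by construction raises calls. Against 15 day replicates 1 and 2 alone they were 8, 7, 1 and 6, and against replicates 3 and 4 alone 13, 13, 0 and 9 (limma), with 2 arrays in place of 4. Leaving out 1 replicate gave ranges of 15 to 77, 15 to 72, 0 to 6 and 8 to 20, and X-linked minus autosomal medians of 0.14 to 0.30. Genes higher at 15 days numbered 16 with all 21 arrays fitted and 5 with values on 2 or more arrays. Scaled arrays gave 108 genes, sharing 65 of the 98 (62 of the 90, 3 of the 8), and moved the X-linked excess to 0.0573. A robust spread, chosen after seeing the data, gave 98. No paired analysis was made, since the labels named no pairing of knockout arrays with 15 day arrays. No dim probe was removed, since signals are not analysed here.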

Other observations

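Aldo-keto reductases, listed after values were seen, gave 3 calls of 6 tested, each higher in the knockout set. Over all genes 1.93% were so called and 0.172% were called higher in the 15 day set. The 3 were Akr1cl at 1.44, Akr1c14 at 1.0 and Akr1c13 at 0.98. Each of the 3 was called in 0 of the 8 limma fits that left out 1 replicate; 2 were called with scaled arrays, without Akr1cl (adjusted p = 0.0581), and over all alternatives the 3 ran from 0 to 4. Of 6 glutathione transferases 3 were called, or 2 with scaled arrays (0 to 4 over all alternatives). Among 19 mitosis and kinetochore genes, Kif2c and Ndc80 were called higher in the 15 day set and 0 in the knockout set, with a median of -0.41; with scaled arrays 0 were called by limma. Slc45a3, a transporter of the solute carrier family, differed by 1.88 and Glb1l2, a relative of the lysosomal galactosidase, by 2.02. Cst3, a secreted inhibitor of cathepsins, differed by 2.17 ± 0.35 in the same direction as the cathepsins. Ftl1, the light chain of the iron store ferritin, was measured by 5 probes and differed by 1.51 ± 0.21. Mybbp1a and Pitrm1 had differences of -4.03 and 5.32 that each rest on 1 array beyond 10, and neither was called.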
